A study of Mus musculus with 31 samples.

Results

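The lymphocyte-attracting CXC chemokines examined here were the ligands Cxcl9, Cxcl10 and Cxcl16 and the receptors Cxcr3 and Cxcr6, 5 of the 22609 gene symbols counted. They were chosen by name, with earlier results of these data known. The shares of all genes set beside them below therefore give scale and are not a test. Their rows were read in all 31 bulk RNA-seq libraries of mouse masseter muscle (MM). All mice were adult male C57BL/6J animals without a transgene or deletion, and each library came from 1 mouse whose left MM had been injected.

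Each treated group was compared with the vehicle group of its own experiment. In the first experiment, MM was taken 1 day (n = 3) or 5 days (n = 3) after complete Freund's adjuvant (CFA), an emulsion that sets off inflammation, and after its vehicle (n = 3). In the second, the injection was collagenase type 2 (Col), which digests the collagen of the extracellular matrix, or its vehicle (n = 3), and the vehicle in both was PBS. The labels divided the low dose of 0.2U into groups named 1C (n = 4) and RPC (n = 4) without a day. They placed the high dose of 10U at 2 days (2d, n = 4), 6 days (6d, n = 3) and 12 days (12d, n = 4), whereas the study's methods give an earlier day for the first and a later day for the last of these. The 5 comparisons with Col vehicle share the same 3 vehicle libraries and are therefore not independent of each other.

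CXCL9 and CXCL10 are small secreted chemokines that bind CXCR3, a receptor carried by activated T cells and NK cells, and both are classical products of cells exposed to interferon. CXCL16 is made as a membrane-bound protein, largely by macrophages and dendritic cells, and is the ligand of CXCR6, a receptor of memory and tissue-resident T cells and NKT cells. In injured skeletal muscle, infiltrating myeloid cells come first and lymphocytes follow.

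Cxcl9 and Cxcl10 lie next to each other on chromosome 5, and their promoters are shown because at 2d after 10U Col the values of the 2 genes lay on opposite sides of vehicle. The sequences are from RefSeq (build GRCm38.p6), 5′ to 3′ on the strand of the gene, from 250 bases before to 50 after the transcription start. 4 of the 5 members had an entry in the promoter table. Capitals mark matches on either strand to an interferon-stimulated response element core (GAAA, any 2 bases, GAAA) or to an NF-kB core, GGNNNTTCC.
Cxcl9, minus strand, chr5:92328030-92328329: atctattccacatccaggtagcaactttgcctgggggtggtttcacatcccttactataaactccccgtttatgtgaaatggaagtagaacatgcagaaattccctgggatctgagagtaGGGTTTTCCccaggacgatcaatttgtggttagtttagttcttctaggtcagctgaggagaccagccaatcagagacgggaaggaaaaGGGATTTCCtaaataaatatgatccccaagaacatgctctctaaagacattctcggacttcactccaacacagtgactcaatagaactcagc
Cxcl10, minus strand, chr5:92348840-92349139: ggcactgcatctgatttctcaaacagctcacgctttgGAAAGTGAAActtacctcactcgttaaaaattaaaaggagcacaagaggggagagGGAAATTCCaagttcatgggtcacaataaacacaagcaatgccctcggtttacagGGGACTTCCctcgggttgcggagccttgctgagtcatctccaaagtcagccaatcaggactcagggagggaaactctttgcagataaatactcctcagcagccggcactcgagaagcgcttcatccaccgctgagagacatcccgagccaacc

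The Cxcl9 window held 2 NF-kB core matches, at -130 to -122 and at -42 to -34 from the transcription start, and no match to the interferon-stimulated response element core. The Cxcl10 window held the response element core at -213 to -204 and NF-kB core matches at -158 to -150 and -103 to -95, the former on both strands. The gamma-activated sequence TTCNNNGAA matched in neither window. None of these matches overlapped another motif. Of 32851 promoters of the same length, 3.44% held the response element core, 18.5% the NF-kB core and 8.3% the gamma-activated sequence. The NF-kB core is thus common and the response element core less so, and a match to such a short motif is not a binding site. A missing match to these strict patterns likewise does not show that a window lacks such an element.

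The libraries held 14843778 to 29076671 reads counted on genes (median 20834472). Counts were scaled by TMM and by library size to CPM, a count relative to the reads counted in its library, and a gene was called where edgeR's quasi-likelihood test gave a Benjamini-Hochberg adjusted p under 0.05. In mm9, the build of the counts, Cxcl9 spans 5:92750357-92757105, Cxcl10 5:92775664-92777915, Cxcl16 11:70267485-70273486 and Cxcr3 X:98926874-98929608, all on the minus strand, and Cxcr6 spans 9:123715595-123720872 on the plus strand. Reads ambiguous between genes made up 0.559 to 0.703% of the reads in the 11 libraries of 10U Col and 0.125 to 0.259% in the other 20, so treatment and counting cannot be told apart where 10U Col is compared with vehicle. Among genes with more than 30% of their exon bases under exons of the opposite strand, the median log2 change at 6d against Col vehicle was -0.29, against 0.01 for genes without an overlapping gene, and in genes with 10 to 30% it was -0.09. Comparisons among the 3 groups of 10U Col do not have this difference.

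At 6d after 10U Col, the mRNA of all 3 ligands was higher than in Col vehicle. This was the only one of the 7 comparisons with vehicle in which edgeR called any member. It called 3 of 5, all higher, where 14.0% of all genes tested were called higher and 27.3% in either direction. Cxcl16 rose 5.47-fold, Cxcl10 7.09-fold and Cxcl9 2.49-fold, and the 2 receptors were higher in each treated mouse but did not pass the test. At 2d the 2 CXCR3 ligands lay on opposite sides of vehicle, with Cxcl10 higher (as 10.7% of all genes were) and Cxcl9 lower (13.2%) in all 4 mice than in any vehicle mouse, although edgeR called neither.

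Counted over comparisons, edgeR called 3 of 5 members at 6d against vehicle, all higher, where 14.0% of the 14281 genes tested were called higher. All 5 were higher without overlap, as were 25.1% of the genes tested. From 2d to 6d, 2 of 5 were called higher (Cxcl9 and Cxcl16), against 4.68% of the genes tested, and 3 did not overlap (12.9%). At 2d against vehicle 0 of 5 were called, against 2.22% of all genes. There edgeR gave 2 with an unadjusted p under 0.05 (33.3% of all genes), DESeq2 called 1 higher (10.9%), and 2 members were higher and 1 lower without overlap, which 10.7% and 13.2% of all genes tested were. At 5 days after CFA, 0 of the 4 members tested were called (1.11% of all genes), 3 had an unadjusted p under 0.05 (14.0%), DESeq2 called 2 higher (4.84%), and 2 were higher without overlap (11.9%).

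At 1 day after CFA edgeR called none of 13944 genes (0.00%), members included. There 1 of the 3 members tested and 588 genes (4.22%) had an unadjusted p under 0.05, while DESeq2 called no member and 53 higher and 9 lower genes. In 1C and RPC edgeR called no gene (0.00%), although 1819 of 14493 and 1923 of 14269 genes had an unadjusted p under 0.05 and DESeq2 called 371 higher and 142 lower genes in 1C and 168 and 213 in RPC. At 12d against vehicle edgeR called 1.23% of the genes. In these 3 comparisons 0 of the 3 members tested were called by either tool or had an unadjusted p under 0.05. From 1 to 5 days after CFA edgeR called 0 of 4 members (5.84% of all genes) and DESeq2 0, and 1, Cxcl16, had an unadjusted p under 0.05 (19.7% of all genes). From 6d to 12d edgeR called 0 of 5 (26.4% of all genes), with 1 unadjusted p under 0.05 (44.0%) and 1 lower call by DESeq2 (16.7%), and Cxcr6 alone was lower without overlap (19.3% of all genes). From 2d to 12d it called 0 of 5 (8.75%), again with 1 unadjusted p under 0.05 (38.9%) and 1 higher DESeq2 call (13.1%), and Cxcl9 alone was higher without overlap (8.22%).

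**Figure D1:**
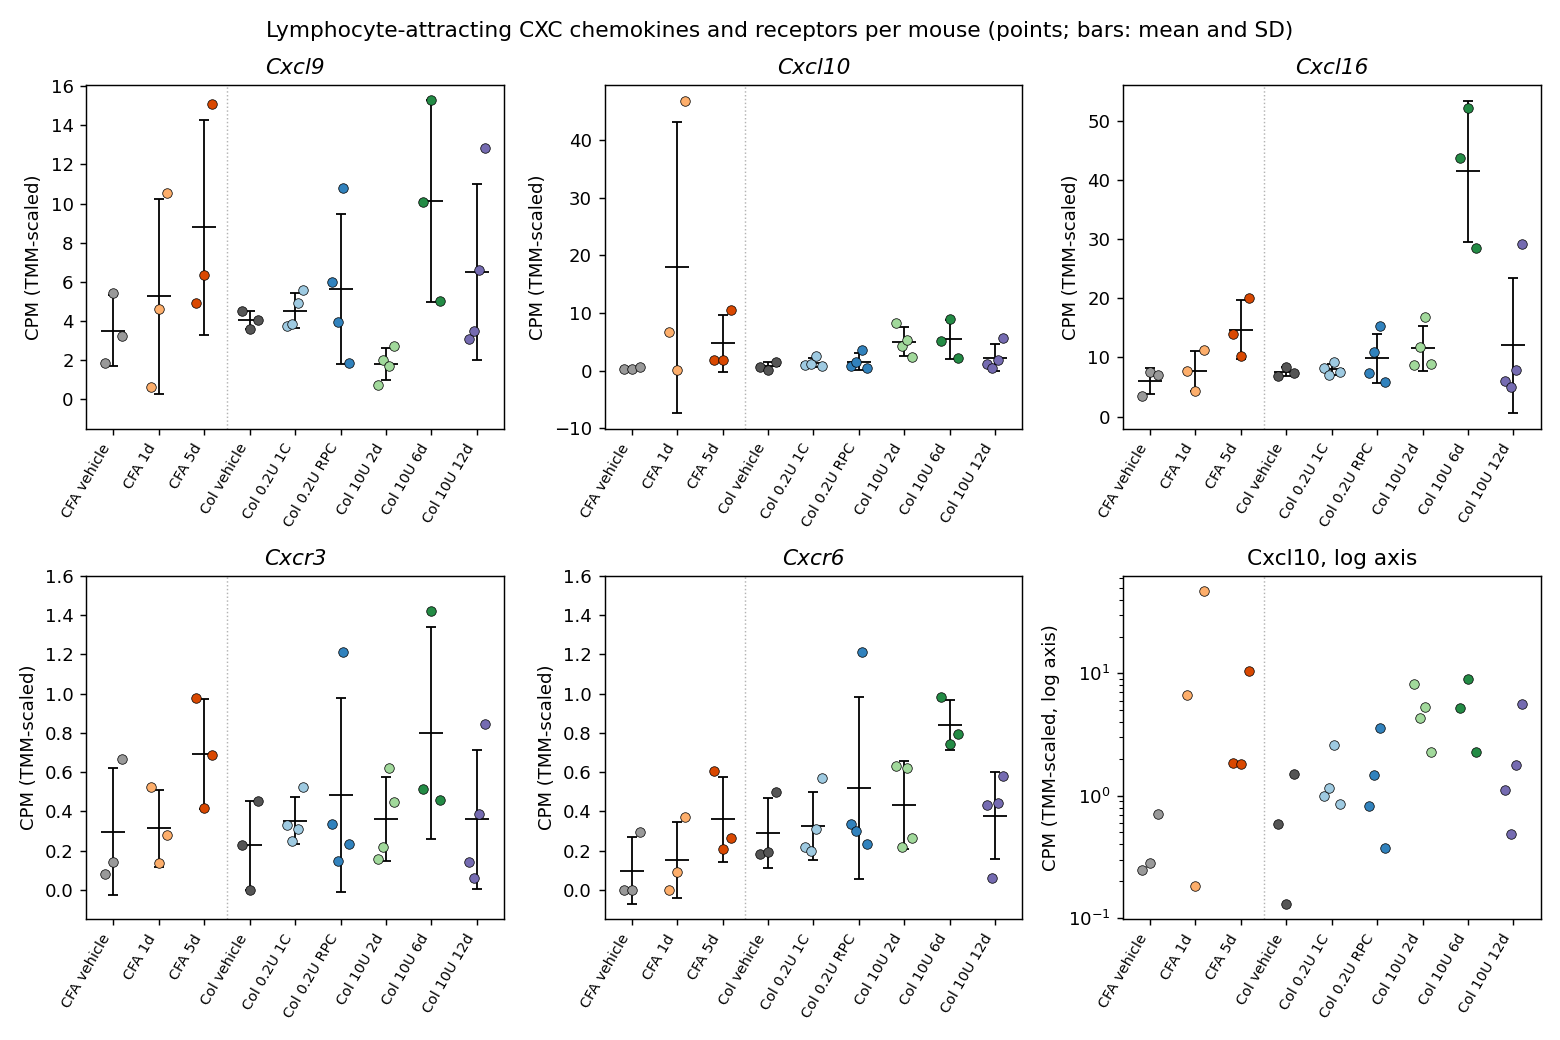
Level of each member (y axis, TMM-scaled CPM) in the 9 groups (x axis). Points are single mice, bars the mean and SD, the dotted line divides the CFA and Col experiments, and the last panel repeats Cxcl10 on a log axis. The 3 mice at 6d after 10U Col held 3 of the 4 highest Cxcl16 values, from 28.5 to 52.1 CPM, while the 4 mice at 2d held Cxcl9 values of 0.735 to 2.70 CPM, below all Col vehicle mice.

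Cxcl9, a CXCR3 ligand strongly dependent on interferon gamma, was measured at 4.51, 3.59 and 4.08 CPM in the Col vehicle mice. At 2d after 10U Col it was 0.735, 2.02, 1.69 and 2.70 CPM. At 6d it was 10.1, 15.3 and 5.01 CPM. All mice at 2d thus lay below vehicle and all mice at 6d above it. At 12d the values were 3.08, 3.50, 6.59 and 12.8 CPM, which overlapped vehicle. The rise at 6d was 1.31 ± 0.39 (log2, SE) with an adjusted p of 0.0440, and the difference at 2d was -1.15 ± 0.44 with an adjusted p of 0.120. From 2d to 6d, a comparison within the 10U libraries, Cxcl9 rose by 2.46 ± 0.50 (log2, SE, adjusted p = 0.0282), or 5.52-fold. That call was lost in 4 of 7 fits that left out 1 mouse, namely without 2d mouse 1, 2d mouse 2, 6d mouse 1 or 6d mouse 2, with an adjusted p from 0.00630 to 0.138 over the 7. From 2d to 12d the groups also did not overlap, with a difference of 1.88 ± 0.55 that missed the threshold (adjusted p = 0.0568). Without 2d mouse 4, this difference (adjusted p = 0.0214) and the one between 2d and vehicle (adjusted p = 0.0362) were called, whereas no other fit that left out 1 mouse called them (adjusted p up to 0.157 and 0.293). The call at 6d against vehicle was lost in 5 of 6 fits that left out 1 mouse, whose adjusted p ranged from 0.0217 to 0.172.

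After CFA, Cxcl9 was 0.645, 4.61 and 10.5 CPM at 1 day, 4.93, 6.35 and 15.1 CPM at 5 days and 1.84, 5.44 and 3.22 CPM in vehicle. The 1-day mice reached both below and above vehicle, and the 5-day group overlapped it by 1 vehicle mouse. The difference was 0.59 ± 0.86 at 1 day (log2, SE, adjusted p = 0.959) and 1.41 ± 0.54 at 5 days (adjusted p = 0.297). After 0.2U Col it was 3.73, 3.84, 4.93 and 5.58 CPM in 1C and 5.97, 3.95, 10.8 and 1.87 CPM in RPC. Both groups overlapped vehicle, and the log2 differences were 0.17 ± 0.26 and 0.52 ± 0.52 (adjusted p = 0.786 and 0.669).

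Cxcl10, the CXCR3 ligand that also responds to type I interferon and to NF-kB, was low in vehicle, where a floor of 3 counts corresponds to 0.111 to 0.196 CPM on the same TMM scale. It was 0.592, 0.130 and 1.49 CPM in Col vehicle, from 13, 2 and 33 counts, the second being under the floor. At 2d after 10U Col it reached 8.24, 4.31, 5.28 and 2.29 CPM, and at 6d 5.18, 9.01 and 2.25 CPM. Each treated mouse of both groups exceeded each vehicle mouse. At 12d the values of 1.11, 0.483, 1.77 and 5.65 CPM overlapped vehicle. The log2 difference was 2.72 ± 0.76 at 2d (SE, adjusted p = 0.0687), 2.83 ± 0.79 at 6d (adjusted p = 0.0360) and 1.63 ± 0.98 at 12d (adjusted p = 0.429). DESeq2 called Cxcl10 at 2d, with an adjusted p of 0.00173, and edgeR did so in 1 of 7 fits that left out 1 mouse (without 2d mouse 4), where its adjusted p ran from 0.0201 to 0.230. Between 2d and 6d Cxcl10 differed by 0.12 ± 0.53 (log2, SE, adjusted p = 0.918). The call at 6d was lost in 3 of 6 fits that left out 1 mouse, with an adjusted p from 0.0155 to 0.134.

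After CFA, Cxcl10 varied more between mice than any other member. At 1 day it was 6.70, 0.183 and 46.9 CPM, the last being the highest value of the series, against 0.245, 0.281 and 0.704 CPM in vehicle. Thus 2 of the 3 mice were far above vehicle and mouse 2 was below it. The fitted difference of 5.40 ± 1.62 (log2, SE) had an unadjusted p of 0.0115 and an adjusted p of 0.924. At 5 days Cxcl10 was 1.86, 1.82 and 10.5 CPM. All 3 mice lay above vehicle, with a difference of 3.55 ± 0.88 that edgeR did not call (adjusted p = 0.116) and DESeq2 did (adjusted p = 0.00105). In the 6 edgeR fits that left out 1 mouse, the adjusted p ran from 0.0153 to 0.325, and Cxcl10 was called in 1 of them, without vehicle mouse 3.

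In the low-dose groups, Cxcl10 was 0.989, 1.15, 2.59 and 0.858 CPM in 1C and 0.819, 1.49, 3.58 and 0.374 CPM in RPC. These overlapped Col vehicle, and the log2 differences of 0.91 ± 0.75 and 1.06 ± 0.92 were not called (adjusted p = 0.622 and 0.615).

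Because Cxcl9 and Cxcl10 were measured in the same libraries, their ratio can be taken within each mouse. This ratio was chosen after the values were seen. Per length (RPKM, with 0.5 count added to each), the log2 ratio of Cxcl10 to Cxcl9 averaged -1.99 ± 1.52 (SD, n = 3) in Col vehicle, 2.41 ± 1.52 (n = 4) at 2d, -0.02 ± 0.19 (n = 3) at 6d and -0.89 ± 0.70 (n = 4) at 12d. At 2d, Cxcl10 exceeded Cxcl9 in 4 of 4 mice, and it did so in none of the 6 vehicle mice of both experiments. The 2d mice did not overlap vehicle, 6d or 12d. The difference of 4.41 from vehicle had p = 0.0571 in a two-sided exact permutation test, the smallest that 4 against 3 mice allow, and the difference of -3.30 between 12d and 2d had p = 0.0286, the smallest for 4 against 4. After adjustment over the 13 comparisons made, the lowest p was 0.186. At 2d Cxcl10 already lay above and Cxcl9 below every Col vehicle mouse, so the separation from vehicle was fixed before the test. These p-values therefore add no support. The lowest vehicle ratio, -3.54 in Col vehicle mouse 2, also rests on 2 Cxcl10 counts, under the floor of 3. At 1 day after CFA the ratio was 4.27 in mouse 1, -3.56 in mouse 2 and 3.09 in mouse 3.

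**Figure D2:**
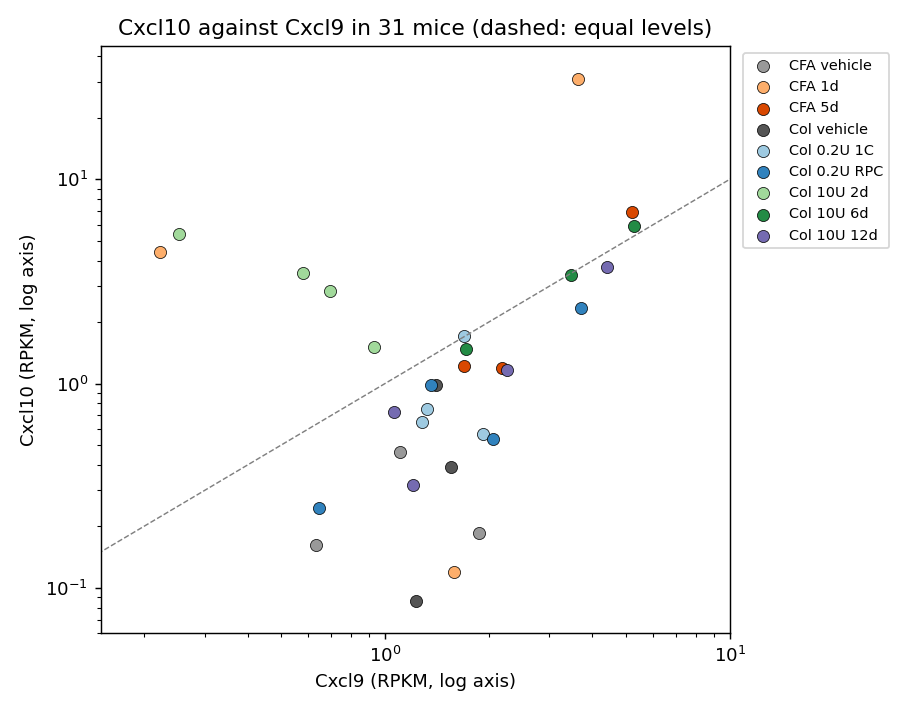
Cxcl10 against Cxcl9 in each of the 31 mice, as RPKM on log axes, coloured by group, with a dashed line where both are equal. The 4 mice at 2d after 10U Col and 2 of the 3 mice at 1 day after CFA lie above the line. Mouse 3 at 5 days after CFA, mouse 2 at 6d and mouse 3 of 1C also lie above it, by less. All 6 vehicle mice lie below the line.

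Cxcl16, the membrane-bound ligand of CXCR6, was the best-measured member, with 84 to 1537 counts per library. It was 6.92, 8.42 and 7.34 CPM in Col vehicle. At 2d after 10U Col it was 8.72, 11.7, 16.9 and 8.89 CPM, and at 6d 43.7, 52.1 and 28.5 CPM. The 2d mice lay narrowly above vehicle, and the 6d mice exceeded all other 10U mice except mouse 4 at 12d, which passed 1 of them. At 12d Cxcl16 was 6.07, 5.07, 7.86 and 29.1 CPM, so 3 mice were within or below the vehicle range and mouse 4 stood apart.

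The rise of Cxcl16 at 6d was 2.45 ± 0.25 (log2, SE, adjusted p = 0.00219), and it was the only member called in all 12 alternative fits of that comparison, with an adjusted p of at most 0.0146. At 2d the difference was 0.63 ± 0.28 (adjusted p = 0.160). From 2d to 6d Cxcl16 rose by 1.83 ± 0.29 (adjusted p = 0.0132), a call that was lost without 6d mouse 1 (adjusted p = 0.0620) or 6d mouse 2 (adjusted p = 0.0748). From 6d to 12d it differed by -1.76 ± 0.60 (adjusted p = 0.0620). Without 12d mouse 4 that difference was -2.72 with an adjusted p of 0.000347, the only such fit that called it (adjusted p up to 0.197 in the others), and the difference of 12d from vehicle changed from 0.74 to -0.23.

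After CFA, Cxcl16 was 7.62, 4.38 and 11.2 CPM at 1 day and 13.9, 10.2 and 20.02 CPM at 5 days, against 3.44, 7.54 and 7.004 CPM in vehicle. All 5-day mice lay above vehicle and the 1-day mice overlapped it. The log2 difference was 0.36 ± 0.45 at 1 day (SE, adjusted p = 0.948) and 1.37 ± 0.38 at 5 days (adjusted p = 0.148), the latter called by DESeq2 with an adjusted p of 0.0247 and by edgeR only without vehicle mouse 3 (adjusted p = 0.0254). After 0.2U Col it was 8.24, 7.03, 9.13 and 7.49 CPM in 1C and 7.27, 10.9, 15.3 and 5.84 CPM in RPC, with log2 differences of 0.09 ± 0.21 and 0.42 ± 0.34 (adjusted p = 0.865 and 0.590).

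Reads of both receptors were few. Cxcr3 had 0 to 42 counts per library, under 10 in 18 of 31, and Cxcr6 had 0 to 23 counts, under 10 in 21 of 31. In Col vehicle, Cxcr3 had 5, 0 and 10 counts and Cxcr6 had 4, 3 and 11. At 6d, Cxcr3 had 12, 42 and 11 counts and Cxcr6 23, 22 and 19. In CPM the 6d mice were above all vehicle mice for both receptors, at 0.514, 1.42 and 0.459 against at most 0.453 for Cxcr3 and at 0.984, 0.745 and 0.793 against at most 0.498 for Cxcr6. The log2 difference was 1.71 ± 0.86 for Cxcr3 (adjusted p = 0.167) and 1.47 ± 0.52 for Cxcr6 (adjusted p = 0.0697, and 0.0167 without vehicle mouse 3 but up to 0.197 without another). With all mice neither was called, and the Cxcr3 values of 6d mice 1 and 3 exceeded vehicle mouse 3 by little.

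At 12d Cxcr6 was 0.434, 0.0604, 0.443 and 0.579 CPM, below each 6d mouse, with a log2 difference of -1.09 ± 0.53 (SE, adjusted p = 0.147). Cxcr3 at 12d was 0.145, 0.0604, 0.387 and 0.846 CPM and overlapped 6d. At 2d Cxcr3 was 0.158, 0.218, 0.621 and 0.450 CPM and Cxcr6 0.630, 0.218, 0.621 and 0.263 CPM, overlapping vehicle (adjusted p = 0.652 and 0.583). In the CFA experiment Cxcr3 was 0.977, 0.416 and 0.688 CPM at 5 days against 0.0818, 0.141 and 0.667 CPM in vehicle, with a log2 difference of 1.23 ± 0.79 (adjusted p = 0.572). Cxcr6 had 8 counts in vehicle mouse 3 and 0 in the other 2, and its 13, 4 and 5 counts at 5 days were too few to be tested. Both receptors were highest of their low-dose groups in RPC mouse 3, with 22 counts each. The low counts limit what a test of the receptors can detect.

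**Figure D3:**
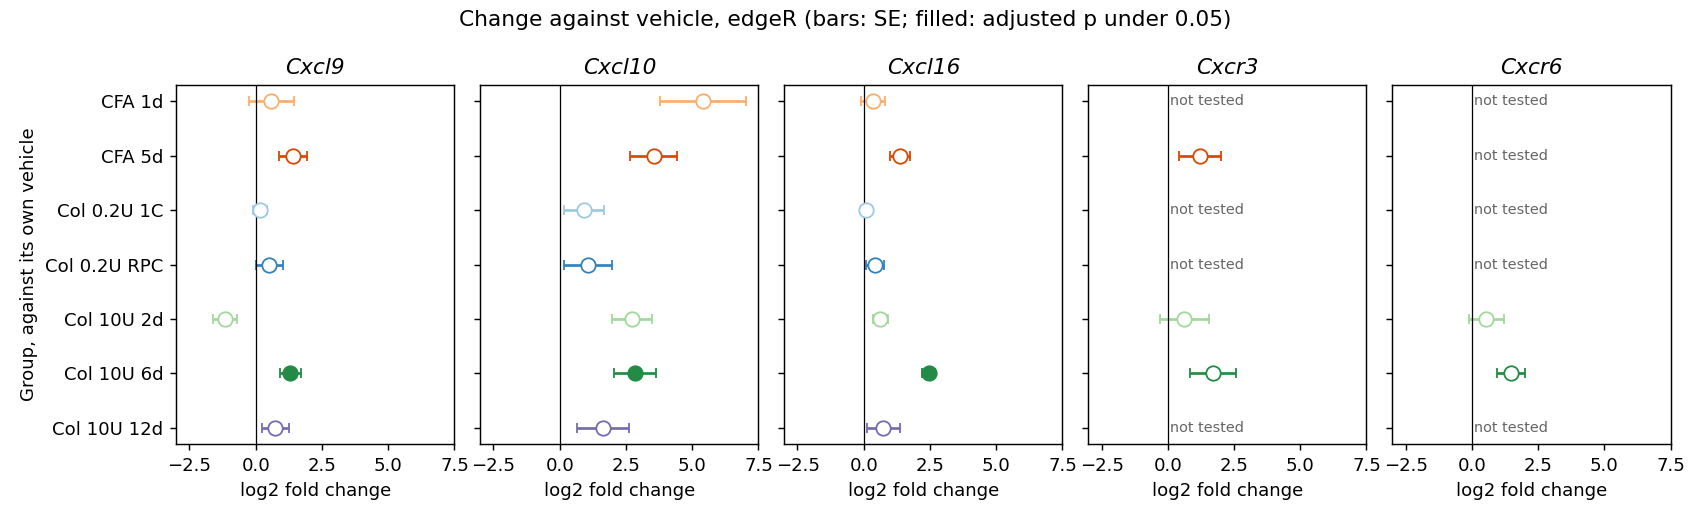
Log2 fold change of each member against its own vehicle (x axis) in 7 groups (y axis), from edgeR, with bars for the SE. Filled points passed an adjusted p of 0.05, which only Cxcl9, Cxcl10 and Cxcl16 at 6d after 10U Col did, and members with too few counts are marked as not tested.

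The differences between the 2 models were tested directly. The change at 6d after Col minus that at 5 days after CFA was 1.08 ± 0.48 for Cxcl16 (log2, SE, adjusted p = 0.160), -0.10 ± 0.72 for Cxcl9 (adjusted p = 0.945) and -0.71 ± 1.25 for Cxcl10 (adjusted p = 0.740). For the early groups, 2d after Col against 1 day after CFA, it was -1.76 ± 1.02 for Cxcl9 (adjusted p = 0.744), -2.69 ± 1.72 for Cxcl10 (adjusted p = 0.762) and 0.25 ± 0.53 for Cxcl16 (adjusted p = 0.915). Neither tool called a member in these 2 contrasts, where edgeR called 11.3% of all genes in the later and 0.0946% in the earlier one, and edgeR gave an unadjusted p under 0.05 for Cxcl16 alone, in the later one, as for 28.9% of all genes. Between the Col and CFA vehicle groups 0 of the 3 members tested were called by either tool (0.0426% of all genes by edgeR), and none had an unadjusted p under 0.05. The same held between RPC and 1C, where edgeR called 0.00% of all genes.

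Ordered by group mean, Cxcl16 was highest at 6d (41.4 ± 12.0 CPM, SD), and this group did not overlap the next, 5 days after CFA (14.7 ± 4.96 CPM). All later neighbours in that order overlapped. Cxcl9 ran from 10.1 ± 5.15 CPM at 6d to 1.78 ± 0.817 CPM at 2d and Cxcl10 from 17.9 ± 25.3 CPM at 1 day after CFA to 0.410 ± 0.255 CPM in CFA vehicle, with each pair of neighbours overlapping. Per length, the median level over the 31 libraries was 2.79 RPKM for Cxcl16, 1.55 for Cxcl9, 1.17 for Cxcl10, 0.195 for Cxcr3 and 0.157 for Cxcr6.

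Upstream of the ligands, the inducing cytokine Ifng, which encodes interferon gamma, was barely detected. It ranged from 0 to 0.522 CPM over all libraries, with 2 to 5 counts per mouse at 6d and 1 to 8 in Col vehicle. Of 7 inducing cytokines, 3 were tested at 6d and none was called (27.3% of all genes), with a median log2 change of 0.80, against 0.01 for all genes tested. Cxcl11, another ligand of CXCR3, stayed at 0 to 1.81 CPM and was too low to be tested in the comparisons with vehicle.

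At 6d against vehicle, 14.0% of all genes tested were called higher. Of 11 genes of the interferon gamma receptor and its signalling, 3 rose there and none fell (median 0.14). These were Ciita, the master regulator of MHC class II (1.82 ± 0.37, adjusted p = 0.0144), Socs1, a feedback inhibitor of JAK signalling (1.62 ± 0.33, adjusted p = 0.0158), and Irf8, a transcription factor of myeloid cells (1.18 ± 0.32, adjusted p = 0.0323). Of 10 interferon gamma targets tested, 1 rose (14.0% of all genes), the GTPase gene Gbp3 (0.83 ± 0.23, adjusted p = 0.0373), and the median was 0.30. From 2d to 6d the target Iigp1, another GTPase, rose by 1.36 ± 0.28 (adjusted p = 0.0299). At 2d against vehicle none of the 11 signalling genes and 10 targets tested was called (2.22% of all genes), with medians of 0.12 and -0.22. At 5 days after CFA the signalling gene Irf9 rose by 1.53 ± 0.23 (adjusted p = 0.0397), and the 10 targets had a median of 0.80 without a call (1.11% of all genes).

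Among the enzymes that process these ligands, Adam10 and Adam17, the sheddases that release CXCL16 from the membrane, rose at 6d by 0.86 ± 0.23 (log2, SE, adjusted p = 0.0325) and 0.74 ± 0.15 (adjusted p = 0.0138). Dpp4, whose protein trims and inactivates CXCL9 and CXCL10, fell by 1.33 ± 0.32 (adjusted p = 0.0239). Of 5 genes of chemokine receptor signalling, 1 rose (14.0% of all genes), the G protein subunit gene Gnai2 (0.65 ± 0.18, adjusted p = 0.0372), and the list had a median of 0.998. From 6d to 12d Gnai2 fell by 0.64 ± 0.18 (adjusted p = 0.0390), as did the arrestin gene Arrb2, by 1.35 ± 0.33 (adjusted p = 0.0256).

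The cells that could carry the receptors or make the ligands were followed with marker lists. In a bulk library, more cells of a type and more RNA per cell cannot be told apart. Of 12 T cell markers, 6 could be tested at 6d and 3 rose (14.0% of all genes). These were the coreceptor Cd4 (2.47 ± 0.59, adjusted p = 0.0224), the kinase Zap70 (2.65 ± 0.48, adjusted p = 0.0105) and the CD3 zeta chain Cd247 (0.82 ± 0.25, adjusted p = 0.0458). Cd2 (0.07 ± 0.56, adjusted p = 0.932), Lck (1.03 ± 0.60, adjusted p = 0.225) and Cd8a (0.89 ± 1.04, adjusted p = 0.537) were not called. The T cell markers summed to 14.9 to 23.0 CPM at 6d, 6.59 to 9.87 in Col vehicle and 14.1 to 25.3 at 12d. Within these sums, Cd247 averaged 4.40 CPM in vehicle, 7.75 at 6d and 10.9 at 12d, and Cd4 averaged 1.13, 6.48 and 2.06. The sums at 6d and 12d thus do not reflect the same markers. Of 9 NK cell markers, 6 were tested and 2 rose (14.0% of all genes), the receptor chain Klrd1 (2.89 ± 0.65, adjusted p = 0.0196) and granzyme B, Gzmb (2.56 ± 0.70, adjusted p = 0.0331). Klrk1, Gzma and Il2rb were higher without a call, and Nkg7 was lower (-1.19 ± 0.82, adjusted p = 0.299). The NK cell sums of 4.63 to 13.8 CPM overlapped those of vehicle, 1.502 to 7.24. B cell markers summed to 1.63 to 1.80 CPM at 6d and to 0.913 to 16.1 in vehicle. Of the lymphocyte transcription factors tested at 6d, none was called. Tbx21 was lower (-1.10 ± 0.41, adjusted p = 0.0810), as was Zbtb16 (-0.72 ± 0.49, adjusted p = 0.293), and Runx3 was higher (0.67 ± 0.82, adjusted p = 0.557).

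All 9 macrophage markers in the count table rose at 6d (14.0% of all genes), among them the Fc receptor Fcgr1 (3.90 ± 0.48, adjusted p = 0.00334), the pore-forming protein gene Mpeg1 (3.80 ± 0.63, adjusted p = 0.00828), the lysosomal Cd68 (3.38 ± 0.67, adjusted p = 0.0138) and the complement gene C1qb (2.89 ± 0.34, adjusted p = 0.00292). Their sum was 905 to 1822 CPM at 6d, 307 to 887 at 2d, 98.5 to 697 at 12d and 110 to 257 in Col vehicle, and none was at 0 in any group. Of 7 dendritic cell markers 4 rose (14.0% of all genes), the integrin Itgax (3.21 ± 0.59, adjusted p = 0.0111), Clec9a (2.79 ± 0.75, adjusted p = 0.0320), Xcr1 (2.47 ± 0.52, adjusted p = 0.0161) and the growth factor receptor Flt3 (2.00 ± 0.60, adjusted p = 0.0433).

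Set beside the macrophage markers, Cxcl16 amounted to 2.86 to 3.46% of their summed CPM at 6d and 2.85 to 7.66% in Col vehicle, so the share was not higher at 6d. At 2d it was 1.90 to 2.89%, at 12d 4.15 to 5.15% and at 5 days after CFA 3.60 to 4.68%. Over the 31 libraries the log2 levels of Cxcl16 and of the markers had Pearson's r = 0.87, a description over samples that share their groups and depth. The part of the macrophage content in the rise of Cxcl16 was not tested.

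**Figure D4:**
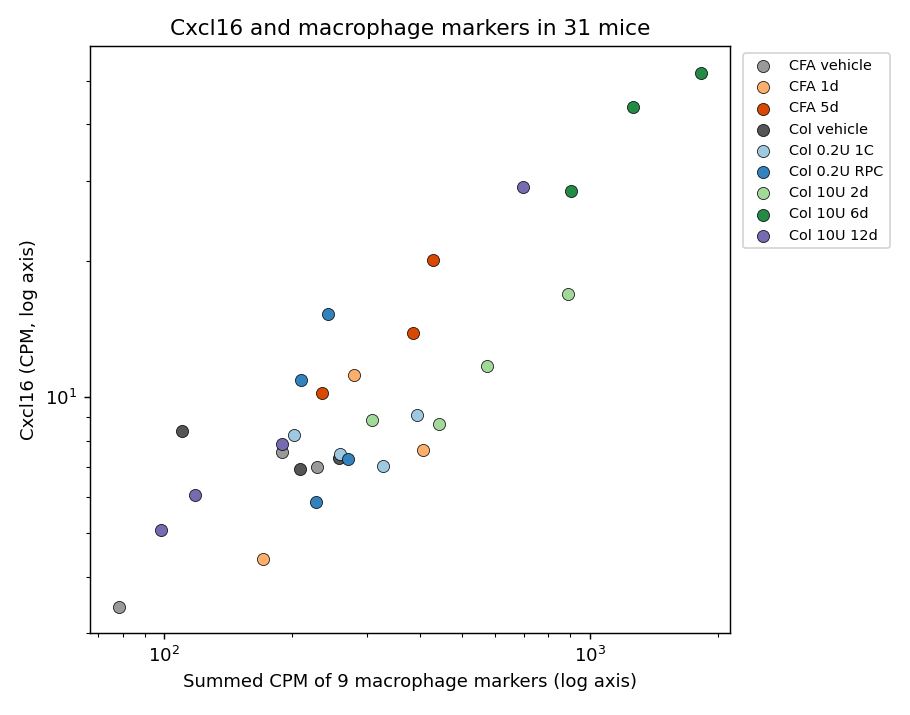
Cxcl16 (y axis, CPM) against the summed CPM of 9 macrophage markers (x axis) in 31 mice, both on log axes and coloured by group. The 3 mice at 6d after 10U Col, at 905 to 1822 CPM of markers, lie at the upper right, next to mouse 4 at 12d with 697 CPM.

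Other tissue contents differed between the same libraries. Salivary gland markers summed to 0.642 to 0.668 CPM at 6d, where Smgc was at 0, but to 5.33 to 22409 in Col vehicle, 5.37 to 11743 at 2d and 1.603 to 124 at 12d. Neutrophil markers summed to 12.8 to 16.9 CPM at 6d and 6.52 to 745 in Col vehicle, keratinocyte markers to 16.2 to 20.2 and 54.1 to 142, and skeletal muscle markers to 25358 to 49144 and 90352 to 136421. At 6d S100a8 and S100a9 of the neutrophils, Dcpp1 and Car6 of the salivary gland, 4 of 4 keratins tested and 3 of 6 muscle markers were called lower (13.3% of all genes). The other neutrophil markers tested were not called. Mmp8 (-3.59 ± 1.42, edgeR adjusted p = 0.0927) and Cxcr2 (-3.92 ± 1.37, adjusted p = 0.0667) were lower, and Csf3r was not (0.06 ± 1.02, adjusted p = 0.973). The paper's flow cytometry, which counts cells, reported raised neutrophils at 6d. The part of these tissue contents in the members' changes was not tested. In 12d mouse 4, which had the highest Cxcl9, Cxcl10, Cxcl16, Cxcr3 and Cxcr6 of its group, macrophage markers reached 697 CPM against 98.5 to 189 in the other 3. In RPC mouse 3, also highest in all 5 members, interferon gamma targets summed to 1585 CPM against 518 to 561 in the other 3.

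Across the 31 libraries, the closest genes differed between members, except that H2-Ab1 was among those of both Cxcl16 and Cxcr3. Closest genes were ranked by Pearson's r of log2 CPM over 15526 genes, a description without a test in which all points share groups and depth. In refits the lists changed in 8 cases and held in 2. Cxcl9 was most like Gbp3 (r = 0.82), followed by Pydc3, Tgtp2, Ifit2 and Cmpk2 (0.80 to 0.76). Cxcl10 was most like Traf1 (0.91), followed by Mx1, Ms4a4c, Epsti1 and Trim30a (0.90 to 0.87). Cxcl16 was most like Ms4a7 (0.91), followed by Arl4c, H2-Ab1, 9030625A04Rik and Unc93b1 (0.90 to 0.89). Cxcr3 was most like the MHC class II chaperone gene Cd74 (0.81), followed by H2-Ab1, H2-DMb1, Cd8a and Rnase6 (0.80 to 0.79). Cxcr6 was most like Gbp8 (0.84), followed by Id2, Ift81, Lpar2 and 2700023E23Rik (0.80 to 0.77).

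Between members, r over all libraries was lowest for the neighbouring Cxcl9 and Cxcl10, at 0.22. After the group means were removed it was 0.38, and Cxcl9 and Cxcr3 had the lowest value, 0.35. Cxcl10 and Cxcl16 gave 0.64 and 0.69, and Cxcl16 and Cxcr6 gave 0.66 and 0.47. The 5 closest genes of Cxcl9 and of Cxcl10 had no gene in common.

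Some members share sequence with genes on the other strand. Cxcl10 lies inside Art3, an ADP-ribosyltransferase gene, with 133 bases of common exon, and Cxcl9 lies 3748 bases from it. Art3 fell at 6d by 1.44 ± 0.26 (log2, SE, adjusted p = 0.0103), opposite to Cxcl10. Cxcl16 shares 552 exon bases with Zmynd15, and 19.7% of its 50-base windows occur there too, so reads of the 2 genes are uncertain without strand. Zmynd15 rose at 6d by 2.38 ± 0.44 (adjusted p = 0.0111), to 2.00 to 5.11 CPM, far below Cxcl16. Cxcr6 lies inside Fyco1 without a common exon, and Fyco1 was not called at 6d (-0.52 ± 0.29, adjusted p = 0.199). Med11, 256 bases from Cxcl16, was not called either (0.29 ± 0.23, adjusted p = 0.373). Windows were compared among protein-coding transcripts only. There, 0.38% of the windows of Cxcl9 occur in other genes, and none of those of Cxcl10, Cxcr3 and Cxcr6 do. The 133 exon bases that Cxcl10 shares with Art3 do not appear in this search, so it does not show Cxcl10 reads to be free of overlap.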

How the data were processed

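Total RNA of 31 MM samples was sequenced from TruSeq stranded libraries. Per the labels and their processing notes, the authors used bcl2fastq, TopHat2 and HTSeq with mm9, and each library was deposited as a table of raw read counts by gene symbol. The strand setting of the counting is not given in the sources used here. Lines of unassigned reads stayed out of library sizes (reads on no gene were 6.69 to 22.5% of reads on genes, on none or ambiguous).

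A gene was tested where 3 or more of the libraries compared held 10 counts or more, with edgeR 4.0.16 (TMM, quasi-likelihood, Benjamini-Hochberg over all genes tested, R 4.3.3, limma 3.58.1), and only the libraries compared entered a fit. Alternatives were DESeq2 1.42.0 and its size factors, no filter, 1 fit of all 31 libraries, pooled vehicles, a replicate block, each library left out, and a fold over 2 with a mean RPKM over 1. RPKM used GENCODE exon lengths on mm9 (21627 symbols matched, 45 by synonym, 937 given the median of 2842 bp).

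Named were the members, the 4 called genes of each list with the largest log2 change, genes within 5000 bp of a member and the 5 genes most like each. Members and lists were chosen with earlier results of these data known. The edgeR code was tested on simulated data. Same-numbered mice deviated together, with every r over 0.1, only in 1 day after CFA against vehicle (0.165 to 0.592) and between the vehicles (0.115 to 0.677), where a block changed no member's call. No source states that a number marks the same litter or day, and p-values measure the spread between single mice. No 2 of the 465 library pairs were identical.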

Additional observations from a re-analysis of the deposited data

Results flagged for a closer look

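In groups of 4 mice, a mouse was singled out where its gap to the nearest other exceeded Dixon's 95% critical value. Chance does this in about 1 in 20 groups, and 10 of the 44 examined held one. The 44 are several quantities read in the same mice, so they are not independent, and their number was not compared with chance. Mouse 4 at 12d after 10U Col stood above its group in Cxcl16 (29.1 CPM) and in the summed CPM of macrophage (697), T cell (25.3), NK cell (10.4) and B cell markers (6.59). RPC mouse 3 stood above its group in Cxcr6 (1.21 CPM) and in interferon gamma targets (1585 CPM summed), and below it in B cell markers (0.882). Mouse 3 of 1C was high in Cxcl10 (2.59 CPM), and mouse 3 at 2d in B cell markers (12.8 CPM).

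The response to 10U Col differed between 2d and 6d in a direct test for Cxcl9 (2.46 on the log2 scale, edgeR adjusted p = 0.0282) and for Cxcl16 (1.83, adjusted p = 0.0132). The call was lost in 4 of 7 fits that left out 1 mouse for Cxcl9 (highest adjusted p 0.138) and in 2 of 7 for Cxcl16 (highest 0.0748). Outside the gene counts, reads ambiguous between genes reached at least 0.559% in each 10U library and at most 0.201% in the vehicle libraries.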

How the results depend on the processing

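Depth limits the receptors most, since Cxcr3 had under 10 counts in 18 and Cxcr6 in 21 of 31 libraries. With all libraries kept, 304 refits of a member's change held direction and call, 14 gained the call, 4 lost it and 9 changed sign, and with 1 library left out 383, 11, 14 and 36 did. DESeq2 called 2 members in place of 0 at 5 days after CFA, 1 in place of 0 at 2d against vehicle, from 6d to 12d and from 2d to 12d, and gave Cxcl10 in RPC no adjusted p. A single fit of all 31 libraries called 1 in place of 3 at 6d and 1 in place of 0 from 6d to 12d and from 2d to 12d. With both vehicles pooled, 2 were called at 2d. With the replicate block, 1 member was called at 5 days after CFA, at 2d and at 6d against vehicle and from 1 to 5 days after CFA, and 2 from 6d to 12d, although the numbers did not pair these samples. The block also reversed Cxcl16 at 12d against vehicle (-0.23) and from 2d to 12d (-0.29), Cxcl10 from 2d to 6d (-0.28), between RPC and 1C (-0.0883) and in the later Col minus CFA contrast (0.0747), and Cxcr3 from 2d to 12d (-0.18), which a single fit put at -0.000416. DESeq2 gave -0.0215 for Cxcr6 in the earlier contrast, and no filter 0.0035 for Cxcl9 in the later one. Leaving out 1 library gave 0 to 2 members called at 5 days after CFA, at 2d and from 2d to 6d, 1 to 3 at 6d, 0 to 4 from 6d to 12d and 0 to 1 from 2d to 12d. The 4 calls from 6d to 12d appeared without 12d mouse 4, namely Cxcl9 (-1.22, edgeR adjusted p = 0.0411), Cxcl10 (-2.29, 0.0109), Cxcl16 (-2.72, 0.000347) and Cxcr3 (-2.01, 0.0395). Signs changed when 1 library was left out as follows. At 1 day after CFA, Cxcl9 ran from -0.42 to 1.12 and Cxcl16 from -0.0064 to 0.65. At 12d against vehicle Cxcl16 ran from -0.23 to 0.97. From 1 to 5 days after CFA Cxcl10 ran from -3.22 to 0.46, and from 2d to 6d from -0.42 to 0.51. From 2d to 12d Cxcl16 ran from -0.88 to 0.35, Cxcr3 from -0.20 to 0.36 and Cxcr6 from -0.37 to 0.21. Between RPC and 1C, Cxcl9 ran from -0.18 to 0.62 and Cxcl10 from -0.65 to 0.65, and between vehicles Cxcl9 from -0.0555 to 0.66. In the earlier contrast Cxcl16 ran from -0.0348 to 0.61, Cxcr3 from -0.85 to 1.47 and Cxcr6 from -4.22 to 1.70. In the later one Cxcl9 ran from -0.50 to 0.64, Cxcl10 from -1.43 to 0.72, Cxcr3 from -1.01 to 1.39 and Cxcr6 from -4.61 to 0.39. None of these reversed values had been called, and their cause was not tested. Of 10 refits of the closest genes, 8 changed the lists.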
